A study of Homo sapiens with 16 samples.

Results

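The 6 human genes CXCL1, CXCL2, CXCL3, CXCL5, CXCL6 and CXCL8 encode the neutrophil-attracting CXC chemokines, and their mRNA was followed through a stepwise fibroblast model of malignancy at 2 oxygen levels. They were chosen by name, from results of these same libraries that were already known, among them the low CXCL8 of immortalized cells at 3% oxygen. All 6 were found among the 19356 protein-coding genes that could be matched in the deposited table. Since that choice used the same contrasts, the levels and fold changes of the 6 genes are a description. How many of them passed the threshold of each fit is counted beside the share of all genes that did, and nothing is read from these counts.

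Primary BJ cells are fibroblasts of human origin grown as a cell line. The immortalized cells carry hTERT (BJ hTERT+), the transformed cells hTERT and SV40 Large-T (BJ hTERT+ SV40+), and the metastasizing cells hTERT, SV40 Large-T and mutated H-Ras (BJ hTERT+ SV40+ Ras-G12V). Each stage was kept for 6 passages at atmospheric oxygen or at 3% oxygen, and all groups shared the same medium with 10% serum at 37 °C and 5% CO2. With duplicate plates, called replicates a and b here, this gives 8 groups and 16 libraries, and each stage is 1 cell line. Plates of 1 line are not separate donors, so the spread between replicates, on which every p-value here rests, may be technical. Expression is in TPM (a transcript abundance), which is scaled for transcript length and adds up to the same total in every library. It holds no read counts, so the depth behind each value is unknown, and less RNA per cell cannot be told apart from fewer cells that express a gene.

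CXC chemokines are small secreted proteins that guide leukocytes. The members that carry the amino acids Glu-Leu-Arg before the CXC motif bind the receptors CXCR1 and CXCR2 on neutrophils and draw these cells into inflamed tissue and tumours. In fibroblasts their transcription is switched on by interleukin 1 and tumour necrosis factor through NF-κB, and their mRNAs are short-lived, with AU-rich elements in the untranslated region at the 3′ end that decay proteins recognise.

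All 6 genes lie in 1 cluster on chromosome 4 (GRCh37). CXCL8 (ENSG00000169429) is at chr4:74606236-74609433, CXCL6 (ENSG00000124875) at chr4:74702357-74714781 and CXCL1 (ENSG00000163739) at chr4:74735110-74737025, all on the plus strand. CXCL5 (ENSG00000163735) is at chr4:74861359-74864394, CXCL3 (ENSG00000163734) at chr4:74902306-74904524 and CXCL2 (ENSG00000081041) at chr4:74962757-74964913, all on the minus strand. Their coding sequences fall into the close relatives CXCL1, CXCL2 and CXCL3 (90.65% to 94.39% identical bases in a global alignment), the pair CXCL5 and CXCL6 (87.43%), and CXCL8 apart (50% to 56.07%). The same division holds for the 300 bases around the start sites, with 77% to 84.67% identity within the first group, 83.67% between CXCL5 and CXCL6, and 48% to 50.33% for CXCL8 against the other 5. Such likeness can blur the assignment of reads. Of all stretches of 31 bases in the leading transcript, 21.7% in CXCL2, 15% in CXCL1, 9.57% in CXCL3, 4.61% in CXCL5, 2.12% in CXCL6 and 0% in CXCL8 were also found in transcripts of another gene.

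The promoters are shown as a description, and their part in the levels of the 6 mRNAs was not tested. Each line runs 5′ to 3′ from 110 bases before the RefSeq start site to 10 bases from it onwards, and the capitals mark the letters GGAATTTCC, an NF-κB-type core. The stretches were placed on GRCh37 by an exact match of the RefSeq promoter (GRCh38.p14): chr4:74735000-74735119 plus strand for CXCL1, chr4:74964903-74965022 minus for CXCL2, chr4:74904397-74904516 minus for CXCL3, chr4:74864385-74864504 minus for CXCL5, chr4:74702285-74702404 plus for CXCL6 and chr4:74606176-74606295 plus for CXCL8.
CXCL1: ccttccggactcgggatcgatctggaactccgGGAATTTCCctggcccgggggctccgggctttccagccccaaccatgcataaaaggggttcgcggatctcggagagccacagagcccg
CXCL2: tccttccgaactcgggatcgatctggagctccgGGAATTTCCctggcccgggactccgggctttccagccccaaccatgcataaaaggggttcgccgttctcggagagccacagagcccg
CXCL3: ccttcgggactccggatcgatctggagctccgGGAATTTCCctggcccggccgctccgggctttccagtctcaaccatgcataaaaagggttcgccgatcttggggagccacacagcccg
CXCL5: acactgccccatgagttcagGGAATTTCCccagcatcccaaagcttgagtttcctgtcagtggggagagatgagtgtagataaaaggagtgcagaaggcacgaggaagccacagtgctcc
CXCL6: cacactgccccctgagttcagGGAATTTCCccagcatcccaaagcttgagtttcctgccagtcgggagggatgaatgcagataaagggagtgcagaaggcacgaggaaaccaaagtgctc
CXCL8: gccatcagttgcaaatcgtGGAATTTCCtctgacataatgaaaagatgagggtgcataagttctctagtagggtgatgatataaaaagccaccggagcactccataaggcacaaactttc

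GGAATTTCC was found once in each of the 6 promoters, in the same orientation, and began 77 or 78 bases before the start in CXCL1, CXCL2 and CXCL3 and 89 to 91 bases before it in CXCL5, CXCL6 and CXCL8. Of all 35116 RefSeq promoters of 300 bases, 0.461% hold these letters on either strand. The letters were picked after the 6 sequences had been read, so this share is a description. TGACTCA, an AP-1 motif, was found in CXCL8 alone, 137 bases before its start, and in 4.95% of all promoters. Of the core letters of hypoxia response elements, ACGTG was in 0 of the 6 windows (21.4% of all promoters) and GCGTG in that of CXCL5 only (36.5%). These motifs were searched on both strands, and a match is no evidence of binding. In the untranslated 3′ region the pentamer ATTTA occurred 6 times in CXCL1, 10 in CXCL2, 7 in CXCL3, 11 in CXCL5, 6 in CXCL6 and 9 in CXCL8, or 5.362 to 13.97 per 1000 bases, against a median of 1.641 per 1000 bases over 18363 canonical transcripts.

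CXCL8, which encodes interleukin-8 and binds both receptors, had the widest range of the 6, from 1.19 to 3653 TPM. In primary cells CXCL8 was at 2.25 and 1.19 TPM (replicates a and b) at atmospheric oxygen and at 11.9 and 4.97 TPM at 3% oxygen. In immortalized cells it was at 3653 and 2324 TPM at atmospheric oxygen and at 98.02 and 73.3 TPM at 3% oxygen. The atmospheric immortalized libraries were the highest of all, and in both stages the 2 oxygen levels did not overlap, with opposite order. In transformed cells CXCL8 was at 31.6 and 31.1 TPM at atmospheric oxygen and at 191 and 1385 TPM at 3% oxygen. In metastasizing cells it was at 100.1 and 108 TPM at atmospheric oxygen and at 292 and 699.6 TPM at 3% oxygen. Both stages were higher at 3% oxygen in both libraries, and replicate b exceeded replicate a there. Ordered by group mean, CXCL8 went from immortalized atmospheric (2989 TPM) through transformed 3% (788 TPM), metastasizing 3% (496 TPM), metastasizing atmospheric (104 TPM), immortalized 3% (85.7 TPM), transformed atmospheric (31.3 TPM) and primary 3% (8.45 TPM) to primary atmospheric (1.72 TPM). Only transformed 3% and metastasizing 3% overlapped as neighbours in that order.

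CXCL1, a ligand of CXCR2 also known as GRO-α, was the highest of the 6 in primary cells and second to CXCL8 in the later stages. It was at 4.32 and 4.05 TPM in primary cells at atmospheric oxygen and at 18.6 and 10.8 TPM at 3% oxygen. In immortalized cells CXCL1 was at 739 and 527 TPM at atmospheric oxygen and at 34.1 and 24.5 TPM at 3% oxygen. As for CXCL8, the order of the oxygen levels was turned around between these stages, without overlap in either. CXCL1 was at 18.6 and 16.5 TPM in transformed cells at atmospheric oxygen, and its 3% libraries were far apart, at 26.9 and 164 TPM. The metastasizing cells held 19.5 and 20.4 TPM at atmospheric oxygen and 30.6 and 294 TPM at 3% oxygen. In replicate a of these last 2 stages the excess at 3% oxygen was thus small, and it was replicate b that lay far above. Ordered by mean, immortalized atmospheric (633 TPM) came first, then metastasizing 3% (163 TPM), transformed 3% (95.5 TPM) and immortalized 3% (29.3 TPM), of which the last 3 overlapped as neighbours. Below them stood metastasizing atmospheric (19.95 TPM), transformed atmospheric (17.6 TPM), which overlapped with primary 3% (14.7 TPM), and primary atmospheric (4.18 TPM).

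CXCL2 and CXCL3, the closest relatives of CXCL1, followed at lower levels. CXCL2 was at 0.248 and 0.160 TPM in primary cells at atmospheric oxygen and at 1.08 and 0.597 TPM at 3% oxygen. In immortalized cells it was at 41.6 and 33.3 TPM at atmospheric oxygen and at 1.40 and 1.60 TPM at 3% oxygen. CXCL2 was at 2.01 and 1.65 TPM in transformed cells at atmospheric oxygen and at 8.96 and 32.7 TPM at 3% oxygen. The metastasizing cells are where the oxygen levels overlapped, with 5.99 and 6.33 TPM of CXCL2 at atmospheric oxygen and 6.11 and 19.3 TPM at 3% oxygen. CXCL3 was at 0.291 and 0.188 TPM in primary cells at atmospheric oxygen and at 2.40 and 1.52 TPM at 3% oxygen, and the corresponding values in immortalized cells were 42.3 and 35.1 TPM and 2.12 and 2.35 TPM. In transformed cells CXCL3 was at 1.36 and 1.504 TPM at atmospheric oxygen and at 2.41 and 12.9 TPM at 3% oxygen. In metastasizing cells it was at 3.25 and 3.20 TPM and at 4.39 and 17.2 TPM. Both genes were highest in immortalized cells at atmospheric oxygen (means of 37.5 and 38.7 TPM), lowest in primary cells at atmospheric oxygen (0.204 and 0.239 TPM). After the highest group came transformed 3%, metastasizing 3% and metastasizing atmospheric for CXCL2 and metastasizing 3%, transformed 3% and metastasizing atmospheric for CXCL3, each overlapping with the next. Lower down only immortalized 3% and primary 3% of CXCL3 overlapped as neighbours.

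CXCL5 and CXCL6, the other pair of relatives, parted from each other. CXCL6, which binds both CXCR1 and CXCR2, was at 0.109 and 0.248 TPM in primary cells at atmospheric oxygen and at 0.985 and 0.665 TPM at 3% oxygen. In immortalized cells CXCL6 was at 40.4 and 29.8 TPM at atmospheric oxygen and at 3.74 and 3.29 TPM at 3% oxygen. It was at 0.548 and 0.198 TPM in transformed cells at atmospheric oxygen and at 1.23 and 5.54 TPM at 3% oxygen. In metastasizing cells CXCL6 was at 0.643 and 0.603 TPM at atmospheric oxygen, and at 0.828 and 10.1 TPM at 3% oxygen, where replicate a lay close to the atmospheric libraries. CXCL5, a CXCR2 ligand, was at 0.245 and 0.273 TPM in primary cells at atmospheric oxygen and at 0.668 and 0.355 TPM at 3% oxygen, and at 2.67 and 1.69 TPM and 0.405 and 0.397 TPM in immortalized cells. In transformed cells CXCL5 was at 1.49 and 1.17 TPM at atmospheric oxygen and at 2.07 and 5.37 TPM at 3% oxygen. In metastasizing cells it was at 2.24 and 3.06 TPM and at 9.61 and 11.7 TPM. CXCL5 was thus the only 1 of the 6 with its highest mean in metastasizing cells at 3% oxygen (10.6 TPM) and not in immortalized cells at atmospheric oxygen (2.18 TPM). The groups next in order, transformed 3% (3.72 TPM), metastasizing atmospheric and immortalized atmospheric, overlapped each with the next, as did primary 3% with immortalized 3%. For CXCL6 the mean of immortalized atmospheric (35.1 TPM) stood apart, metastasizing 3% (5.47 TPM), immortalized 3% (3.51 TPM) and transformed 3% (3.39 TPM) overlapped each with the next, and transformed atmospheric overlapped with primary atmospheric at the low end.

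**Figure D1:**
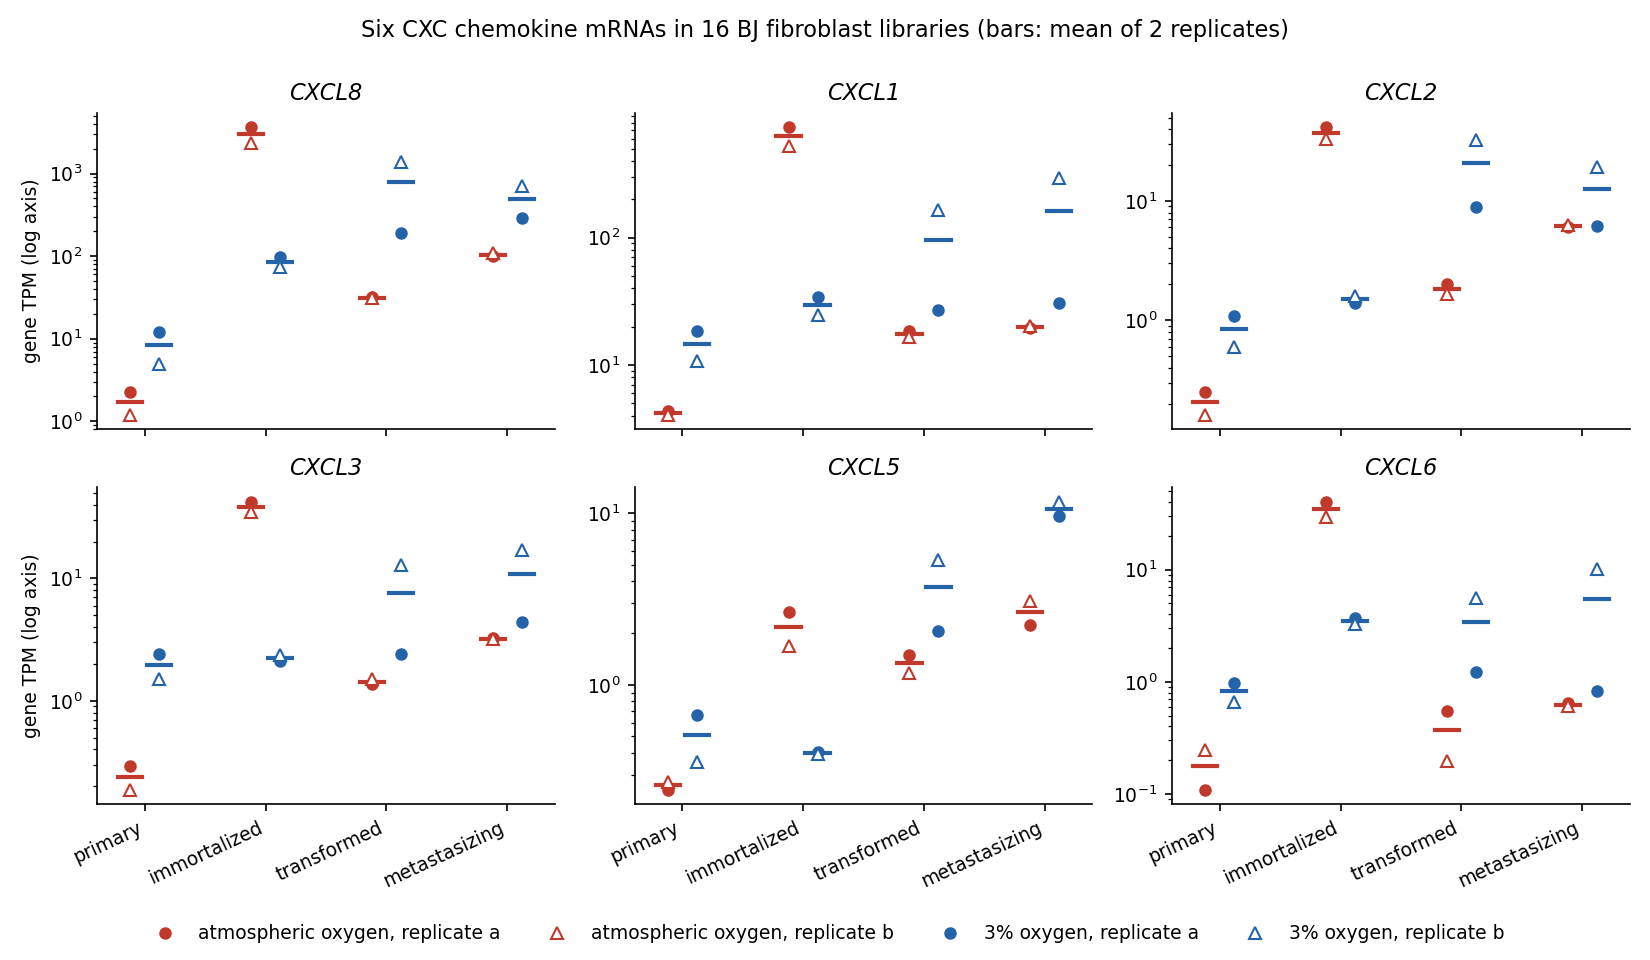
Gene TPM (log axis, a scale of its own in each panel) of the 6 chemokines by stage, with atmospheric oxygen in red and 3% oxygen in blue, replicate a as filled circles, replicate b as open triangles and the mean of the 2 replicates as a bar. Red lies above blue in immortalized cells in every panel, and at 3% oxygen replicate b lies above replicate a in transformed cells in every panel.

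The 6 mRNAs were not equally common. Their summed level was lowest in primary cells at atmospheric oxygen (6.79 ± 0.961 TPM, SD, n = 2) and highest in immortalized cells at atmospheric oxygen (4519 and 2951 TPM). At 3% oxygen the sum was 35.6 and 18.9 TPM in primary, 140 and 105 TPM in immortalized, 233 and 1605 TPM in transformed and 343 and 1052 TPM in metastasizing cells. The atmospheric sums of the last 2 stages were 55.6 and 52.1 TPM and 132 and 142 TPM. CXCL1 was the most common of the 6 in all 4 primary libraries, with 52.1% to 66.2% of the sum against 19.6% to 33.5% for CXCL8. CXCL8 was the most common in the other 12, with 56.8% to 86.3%. CXCL1 and CXCL8 together held 83.4% to 97.2% of the sum. Within the metastasizing cells at 3% oxygen the CXCL1 share was 8.92% in replicate a and 28.0% in replicate b.

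**Figure D2:**
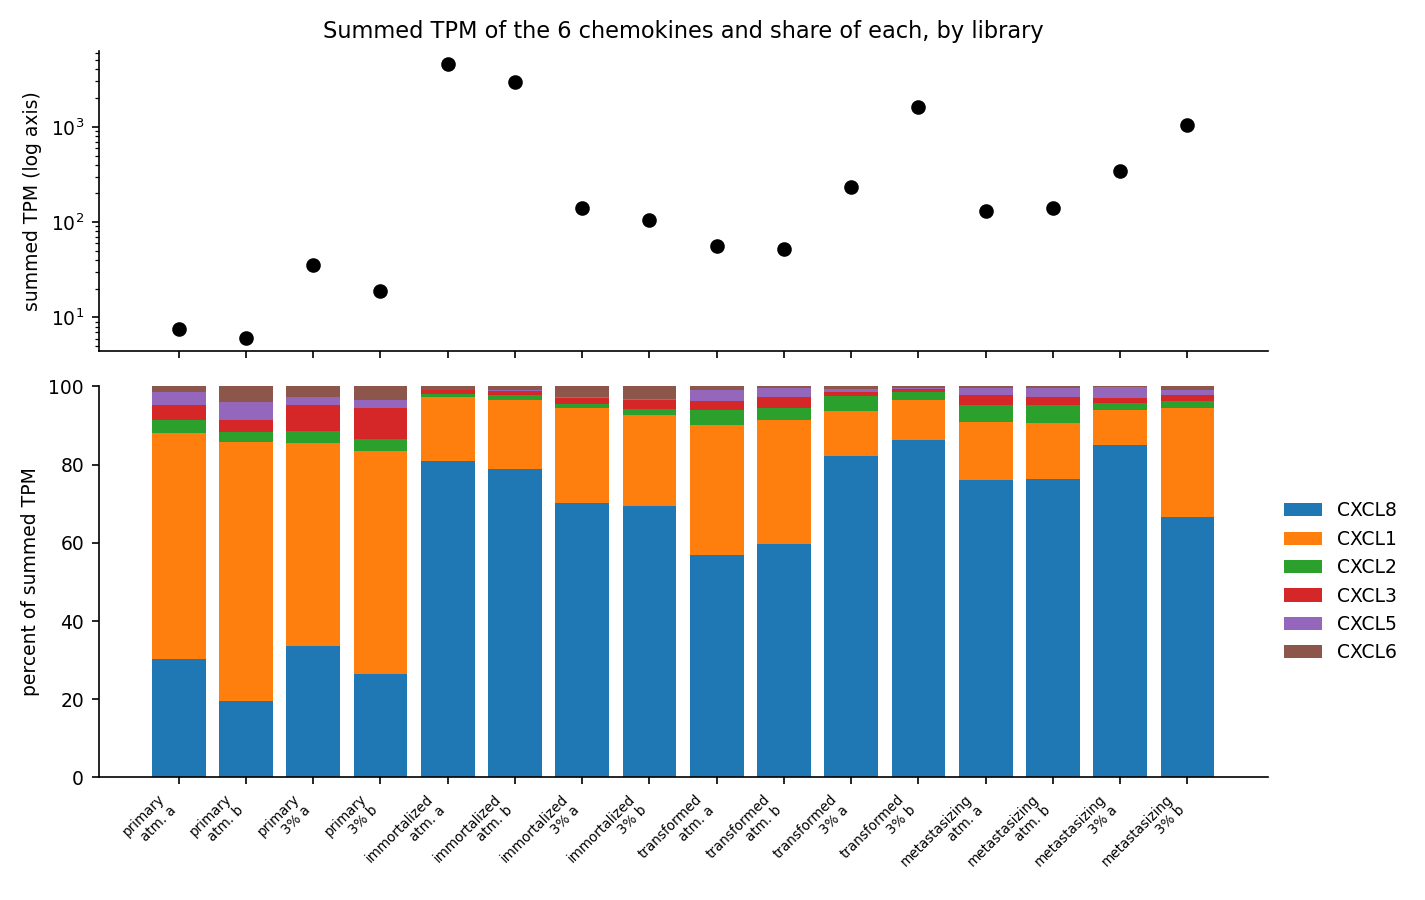
Upper panel, summed TPM of the 6 chemokines in each library (log axis). Lower panel, percent of that sum contributed by each gene, with libraries labelled by stage, oxygen and replicate. CXCL1 (orange) is the larger share in the 4 primary libraries and CXCL8 (blue) in the other 12.

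The first question was how each stage differed between 3% and atmospheric oxygen. The fold changes are from limma on log2(TPM + 0.5), which understates the change of low genes, and a gene was called at a Benjamini-Hochberg adjusted p under 0.01 and a log2FC beyond 1. A gene entered a comparison if its mean reached 1 TPM in at least 1 of the groups. In primary cells 3 of the 6 passed this filter, CXCL3 only through its 3% libraries, and CXCL2, CXCL5 and CXCL6 did not pass. The log2FC was 1.93 ± 0.75 (SE) for CXCL8, 1.71 ± 0.64 for CXCL3 and 1.65 ± 0.91 for CXCL1, and 0 of 3 were called as higher (2.78% of all 12184 genes tested were). At an unadjusted p under 0.05, 2 of the 3 passed in limma, as did 39% of all genes tested. The 2 libraries at 3% oxygen lay above both atmospheric libraries for the 3 genes tested, an order that 40.8% of all genes tested had. CXCL2, CXCL5 and CXCL6 had this order too, but averaged under 1 TPM in both groups and are not among the genes behind that share.

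In immortalized cells all 6 genes were lower at 3% oxygen, by 5.44 to 34.9 times as a ratio of mean TPM. CXCL8 showed a log2FC of -5.10 ± 0.75, CXCL1 of -4.41 ± 0.91, CXCL2 of -4.24 ± 0.55, CXCL3 of -3.84 ± 0.64, CXCL6 of -3.13 ± 0.78 and CXCL5 of -1.55 ± 0.35. Of these, 5 of 6 were called as lower, all but CXCL6, beside 2.78% of the 12049 genes tested. CXCL5 passed the filter only through its atmospheric libraries. All 6 had both 3% libraries under both atmospheric libraries, as did 27.9% of the genes tested. The number called went down whenever 1 of the 4 immortalized libraries was left out, which left 1 library in a group and a wider error. Over the 16 fits with a library left out the log2FC ranged from -5.42 to -4.77 for CXCL8 and -4.65 to -4.16 for CXCL1. It ranged from -4.40 to -4.08 for CXCL2, -3.97 to -3.70 for CXCL3 and -1.82 to -1.28 for CXCL5.

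In transformed cells the 6 genes were higher at 3% oxygen, with a log2FC of 4.02 ± 0.75 for CXCL8, 2.93 ± 0.55 for CXCL2, 1.92 ± 0.78 for CXCL6, 1.90 ± 0.91 for CXCL1, 1.69 ± 0.64 for CXCL3 and 1.09 ± 0.35 for CXCL5. CXCL8 and CXCL2 were called, 2 of 6 (4.9% of the 12242 genes tested were called as higher). CXCL6 passed the filter only through its 3% libraries. Both 3% libraries lay above both atmospheric libraries for 6 of 6, as for 37.3% of the genes tested. Without 3% replicate a the log2FC of CXCL8 was 5.44 ± 0.56 and 4 genes were called, and without 3% replicate b it was 2.59 ± 0.56 and 1 gene, CXCL8, was called. With either atmospheric library left out, or with only the transformed libraries in the fit, 0 were called.

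In metastasizing cells CXCL5, at 2.65 ± 0.581 TPM (SD, n = 2) at atmospheric and 10.6 ± 1.45 TPM at 3% oxygen, had a log2FC of 1.83 ± 0.35. It was the 1 of 6 that was called as higher, beside 3.06% of the 12288 genes tested. CXCL1 had the larger log2FC of 2.23 ± 0.91 with a wider error, CXCL8 had 2.11 ± 0.75, CXCL6 1.74 ± 0.78, CXCL3 1.32 ± 0.64 and CXCL2 0.78 ± 0.55. CXCL6 passed the filter only through its 3% libraries. Both 3% libraries lay above both atmospheric libraries for 5 of 6, all but CXCL2, as for 21.7% of the genes tested. Without 3% replicate a, CXCL1, CXCL5 and CXCL6 were called, and without 3% replicate b or either atmospheric library, or with only the metastasizing libraries in the fit, 0 were. The call of CXCL5 thus rested on 3 of its 4 libraries. Without a transformed 3% library, which only changes the estimate of the spread, 2 genes were called.

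**Figure D3:**
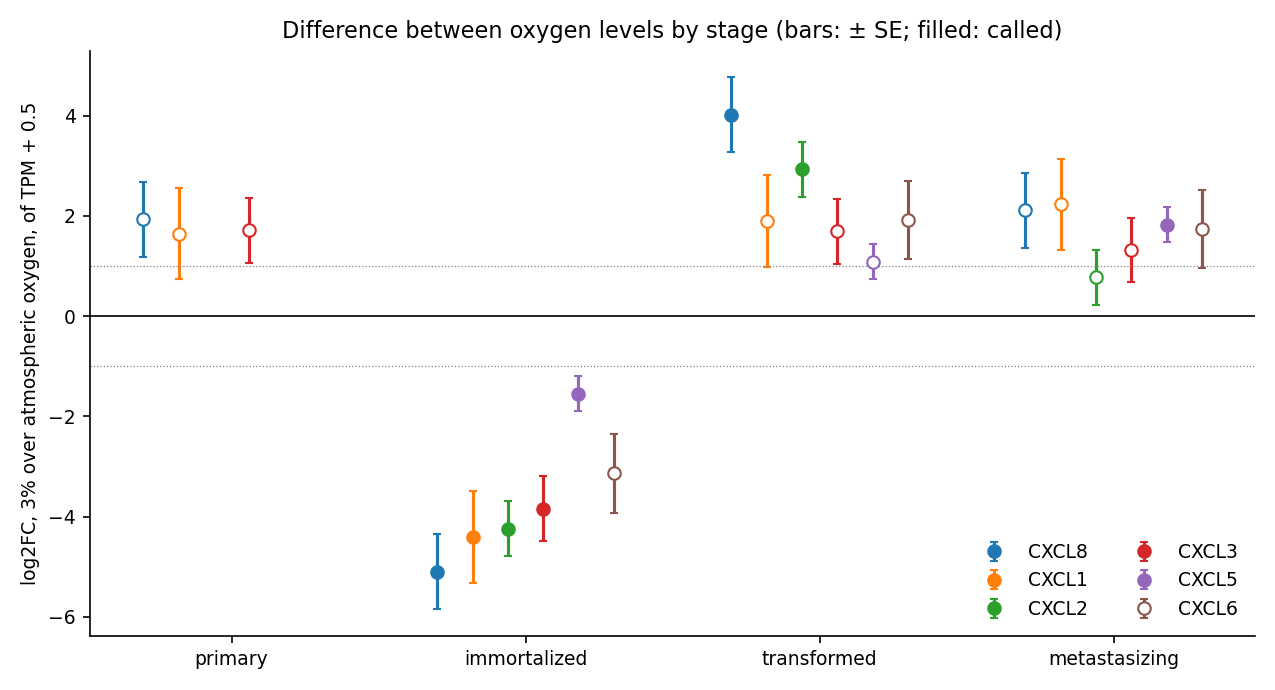
Log2FC of TPM + 0.5 at 3% over atmospheric oxygen for each chemokine (colours) in the 4 stages, with bars of 1 SE on either side. Filled points were called, open points were tested and not called, and genes that were not tested have no point. Every point in immortalized cells lies under 0, down to -5.10 for CXCL8, and every point in the other stages above it.

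By stage, from primary to metastasizing cells, the median log2FC of the members tested was 1.71, -4.04, 1.91 and 1.78, against medians over all genes tested of 0.08, 0.11, 0.01 and -0.13. Median-ratio rescaling of the libraries shifted the median over all genes by -0.101, -0.121, -0.004 and 0.127. It shifted it by -0.213 from immortalized to transformed cells at atmospheric oxygen, and by 0.111 and 0.128 in the interactions of transformed with immortalized and of metastasizing with transformed cells. The number of members higher and the number called stayed as they were in all 13 comparisons.

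Neighbouring stages were compared next, at each oxygen level. From primary to immortalized cells at atmospheric oxygen all 6 were called as higher (5.98% of 12388 genes tested). CXCL2, CXCL3, CXCL5 and CXCL6 were under 1 TPM in the primary cells and entered the comparison only through the immortalized ones, so that they could pass in this direction alone and the count supports nothing. CXCL8 had a log2FC of 10.40 ± 0.75 and CXCL1 of 7.06 ± 0.91, while CXCL2, CXCL3 and CXCL6 had 5.70 to 5.75 and CXCL5 1.80 ± 0.35. As ratios of mean TPM this was 1733 for CXCL8, 197 for CXCL6, 184 for CXCL2, 162 for CXCL3, 151 for CXCL1 and 8.42 for CXCL5. CXCL6 entered the next step, too, only through the immortalized cells. From immortalized to transformed cells at atmospheric oxygen 5 of 6 were called as lower (11.2% of 12387). CXCL8 had a log2FC of -6.52 ± 0.75, CXCL6 of -5.36 ± 0.78 and CXCL1 of -5.11 ± 0.91, and CXCL5, with -0.53 ± 0.35, was not called. From transformed to metastasizing cells at atmospheric oxygen limma called 0 of the 5 tested as higher (2.4% of 12203), with log2FC from 0.18 ± 0.91 for CXCL1 to 1.71 ± 0.75 for CXCL8, and 3 of the 5 had an unadjusted p under 0.05, as did 33.5% of all genes tested.

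The same steps were compared at 3% oxygen. From primary to immortalized cells CXCL8 alone, of 5 tested, was called as higher (log2FC 3.37 ± 0.75, with 4.19% of 12218 genes called), and it was not called when any primary or immortalized 3% library or any atmospheric library of the later 2 stages was left out. CXCL3 was at 1.96 TPM in primary and 2.23 TPM in immortalized cells at 3% oxygen, with overlapping libraries. From immortalized to transformed cells CXCL2 (3.15 ± 0.55) and CXCL5 (2.11 ± 0.35) were called as higher, 2 of 6 beside 8.96% of 12396 genes, CXCL5 having entered only through the transformed cells. CXCL8 had a log2FC of 2.60 ± 0.75 and CXCL6 one of -0.31 ± 0.78, and 4 genes were called without transformed 3% replicate a. From transformed to metastasizing cells CXCL5 alone was called as higher (1.51 ± 0.35, 1 of 6 beside 1.99% of 12288), and this call was kept in 1 of the 16 fits with a library left out, the one without transformed 3% replicate b. The other 5 overlapped between these groups, with log2FC from -0.63 for CXCL2 to 0.58 for CXCL3.

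The difference of the oxygen effect between neighbouring stages was fitted as an interaction. From primary to immortalized cells it was -7.03 ± 1.06 on the log2 scale for CXCL8, -5.55 ± 0.91 for CXCL3 and -5.14 ± 0.78 for CXCL2. These were 3 of 6 called as lower (1.06% of 12632 genes tested). CXCL2, CXCL5 and CXCL6 were under 1 TPM in both primary groups and entered only through the immortalized cells, so the count supports nothing. CXCL1, with a difference of -6.05 and an SE of 1.29, lay between CXCL8 and CXCL3 in size and was not called. Leaving out any primary or immortalized library brought the number to 0 or 1, with 1 for primary 3% replicate b. Leaving out either metastasizing 3% library brought it to 5. From immortalized to transformed cells the difference was 9.11 ± 1.06 for CXCL8, 7.17 ± 0.78 for CXCL2, 6.30 ± 1.29 for CXCL1, 5.53 ± 0.91 for CXCL3, 5.05 ± 1.11 for CXCL6 and 2.64 ± 0.49 for CXCL5, and all 6 were called as higher (6.13% of 12715). The number was 3 without immortalized atmospheric replicate a, without either immortalized 3% library, or without transformed atmospheric replicate b. From transformed to metastasizing cells limma called 0 of 6 as higher (2.84% of 12590), with differences from -2.15 ± 0.78 for CXCL2 to 0.74 ± 0.49 for CXCL5, and 1 of the 6 had an unadjusted p under 0.05, as did 38.5% of all genes tested. Without transformed 3% replicate a, 2 were called.

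The 2 replicates lay far apart for nearly all members in 2 of the 8 groups. In transformed cells at 3% oxygen replicate b was above replicate a for all 6 genes, by 7.24 times for CXCL8, 6.10 for CXCL1, 5.35 for CXCL3, 4.49 for CXCL6, 3.65 for CXCL2 and 2.60 for CXCL5. All 6 thus exceeded 2-fold, as did 3.51% of the 11971 genes that averaged 1 TPM or more, in that direction. In metastasizing cells at 3% oxygen the ratio was 12.2 for CXCL6, 9.62 for CXCL1, 3.91 for CXCL3, 3.15 for CXCL2, 2.40 for CXCL8 and 1.21 for CXCL5, so that 5 of 6 exceeded 2-fold (8.86% of 11839 genes). In the metastasizing group 13.3% of genes differed more than 2-fold in either direction and in the transformed group 5.41%, against 2.56% to 4.46% in the other 6 groups. HRAS, the gene of the oncogene added last, was at 143 and 772 TPM in replicates a and b of metastasizing cells at 3% oxygen, and its part in the difference was not tested. In the immortalized cells no member differed by 2-fold between replicates at either oxygen level, with ratios of b over a from 0.633 to 1.14. In the atmospheric metastasizing cells the ratios were 0.937 to 1.37. Elsewhere a 2-fold gap was seen for CXCL8 in primary cells at 3% oxygen, where replicate a was 2.40 times replicate b, and for CXCL6 at under 1 TPM in the primary and transformed atmospheric cells.

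**Figure D4:**
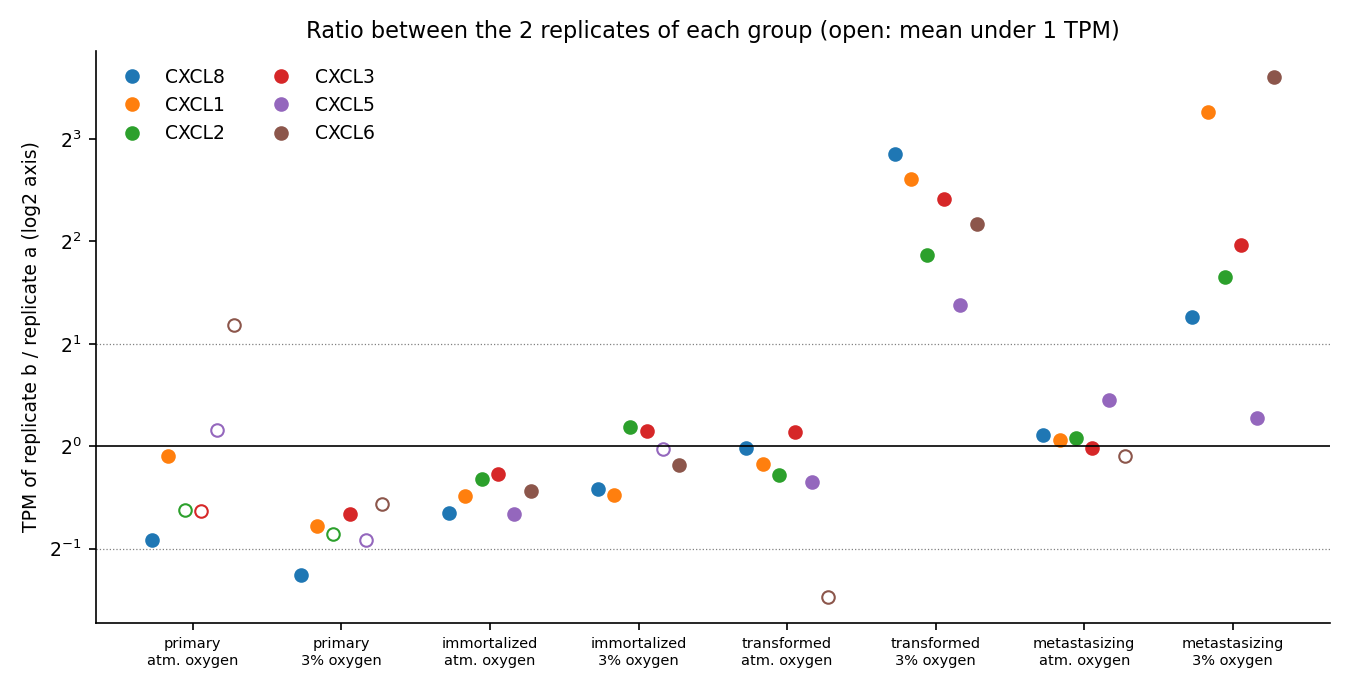
Ratio of replicate b to replicate a in TPM (log2 axis) for each chemokine (colours) in the 8 groups, with dotted lines at 2-fold either way and open points for a group mean under 1 TPM. All 6 points lie above 2-fold in transformed cells at 3% oxygen, and 5 of 6 in metastasizing cells at 3% oxygen.

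Over the 16 libraries the correlation of log2(TPM + 0.5) between 2 members ranged from 0.353 to 0.983 in the 15 pairs, with a median of 0.911. CXCL1 and CXCL3 had the highest Pearson r (0.983) and CXCL5 and CXCL6 the lowest (0.353), and the transcripts share sequence within both pairs. CXCL2 was nearer to CXCL8 (0.962) than to CXCL1 (0.911). These are descriptions over libraries that share stage, oxygen and TPM scaling. The leading transcript held at least 81.7% of the gene TPM in every library for CXCL1, CXCL5, CXCL6 and CXCL8, and its lowest share was 71.9% for CXCL3 and 56.4% for CXCL2, the latter in a primary library.

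RNA of the receptors was at or close to 0. CXCR1, CXCR2 and the decoy receptor ACKR1 did not exceed 0.0349, 0.0266 and 0.0990 TPM, and they were listed at 0 in 12, 14 and 13 of the 16 libraries. PPBP, the platelet chemokine in the same cluster, was listed at 0 in all 16. The fibroblast label was checked with 8 markers such as COL1A1 and VIM, all of which had at least 1 TPM in every library. Their summed level went from 19965 to 20461 TPM in primary atmospheric libraries down to 3746 to 4556 TPM in transformed 3% libraries. LUM and DCN were at 3490 and 2841 TPM and at 1074 and 957 TPM in primary atmospheric libraries. In metastasizing 3% libraries LUM was at 4.00 and 17.1 TPM and DCN at 2.23 and 7.11 TPM, while VIM was at 3628 and 4308 TPM. Of 6 leukocyte markers, 4 were under 1 TPM in every library, and the neutrophil genes S100A8 and S100A9 were at 0 throughout. The summed level of the 6 was 43.1 to 162 TPM, nearly all of it CD68, a lysosomal gene that fibroblasts also express. It was 155 to 162 TPM in atmospheric immortalized libraries, where the chemokines were highest too, against 79.7 to 86.0 TPM at 3% oxygen, 49.7 to 64.9 TPM in primary, 43.1 to 93.0 TPM in transformed and 44.7 to 109 TPM in metastasizing libraries. The epithelial and endothelial markers did not exceed 3.61 and 0.547 TPM in sum. TERT was at 0 to 0.543 TPM in primary and at 31.6 to 193 TPM in all later libraries, as labelled. HRAS did not set the atmospheric metastasizing libraries (94.6 and 78.1 TPM) apart from the atmospheric transformed ones (120 and 99.0 TPM), so the Ras label was not checked by it there.

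Another 57 genes around the chemokines were grouped by role: receptors, chemokines of the same region of chromosome 4, other chemokines, inducing cytokines and their receptors, neutrophil growth and survival factors, transcription factors and inhibitors, and mRNA decay factors. Between the 2 oxygen levels limma called 0 of 32 tested in primary cells (12 had an unadjusted p under 0.05, as did 39% of all genes tested). It called 0 higher and 11 lower of 43 in immortalized cells, 4 higher and 3 lower of 40 in transformed cells, and 3 higher and 4 lower of 40 in metastasizing cells. The shares of all genes called as lower were 2.58% in transformed and 4.6% in metastasizing cells. The median log2FC of the tested genes was -0.12 in primary cells, against 0.08 over all genes. It was -1.19, 0.48 and 0.09 in the later stages, against the medians of 0.11, 0.01 and -0.13 over all genes. Some genes behind these counts and medians averaged under 1 TPM in 1 oxygen group of a stage. CCL11, IL1RN, CSF3 and TNFRSF1B did so at 3% oxygen in immortalized cells, and IL1A and CXCL11 in later stages. Such genes entered only through the group where they were higher, so the filter favoured their direction. Nothing is therefore read from the counts or the medians. The number called hung on single libraries. In immortalized cells the log2FC itself moved little over the 16 fits with a library left out. It ranged from -4.18 to -3.37 for IL1B, -4.50 to -4.07 for CSF2 and -5.70 to -5.44 for CSF3. The number called there fell without any 1 of the 4 immortalized libraries, with 1 library left in a group and a wider error. In transformed cells it was 1 or 2 without an atmospheric transformed library, 4 without 3% replicate b and 11 without 3% replicate a. In metastasizing cells it was 4 or 3 without atmospheric replicate a or b, 12 without 3% replicate b, and 13 without either transformed 3% library. In primary cells it was 1 without atmospheric replicate a and 2 without either metastasizing 3% library.

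Of the inducing cytokines and their receptors, 0 of 7 tested rose and 3 fell in immortalized cells, beside 2.78% of all genes called as lower. The 3 were IL1B, the antagonist gene IL1RN and the receptor gene TNFRSF1B. IL1B and IL1A were the 2 of 6 that rose in transformed and in metastasizing cells, and 0 fell. Many genes named here, such as IL1A, IL1RN, TNFRSF1B, CSF3, CCL11, CXCL10 and CXCL11, were under 1 TPM in 1 of the compared groups. They entered only through the other group, so the filter favoured their direction. Nothing is read from counts that include them. IL1B, which encodes interleukin 1β, was at 589 and 336 TPM in immortalized cells at atmospheric and at 36.6 and 28.1 TPM at 3% oxygen, and fell by a log2FC of -3.77 ± 0.74 (limma, adjusted p = 0.00395). In transformed cells IL1B was at 1.89 and 3.22 TPM at atmospheric and at 28.1 and 155 TPM at 3% oxygen, and rose (log2FC 4.48 ± 0.74, adjusted p = 0.00114). In metastasizing cells it was at 5.76 and 6.003 TPM and at 186 and 677 TPM, and rose as well (log2FC 5.80 ± 0.74, adjusted p = 0.000319). Like the chemokines, IL1B was higher in replicate b of both 3% groups, by 5.53 and 3.63 times. IL1A, which encodes interleukin 1α, rose in transformed (2.73 ± 0.58, adjusted p = 0.00472) and metastasizing cells (2.60 ± 0.58, adjusted p = 0.00766) from atmospheric means of 0.0923 and 0.305 TPM. It passed the filter of 1 TPM only through the 3% libraries, where it is high, so the filter favoured this direction. The call of IL1A in metastasizing cells was kept in only 3 of 16 fits with a library left out, while that of IL1B was kept in 16. IL1RN, which encodes the receptor antagonist, was at 6.498 and 5.92 TPM in atmospheric immortalized cells and under 0.7 TPM in every other library, and fell there at 3% oxygen (-2.70 ± 0.26, adjusted p = 7.87e-05). TNFRSF1B, which encodes a receptor of tumour necrosis factor and is named after its values were seen, had a log2FC of -1.23 ± 0.18. TNF did not exceed 0.105 TPM.

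CSF2 and CSF3, which encode the granulocyte-macrophage and granulocyte colony-stimulating factors, fell at 3% oxygen in immortalized cells, where 3 of 4 growth and survival factors were called as lower, the third being IL6, which encodes interleukin 6 and is named after its values were seen (log2FC -3.67 ± 0.71). CSF2 was at 77.6 and 64.6 TPM at atmospheric and at 2.66 and 3.76 TPM at 3% oxygen (log2FC -4.28 ± 0.81, adjusted p = 0.00321). CSF3 was at 60.3 and 50.4 TPM at atmospheric and at 0.776 and 0.575 TPM at 3% oxygen (-5.57 ± 1.25, adjusted p = 0.00793), a call kept in 4 of 16 fits with a library left out. In transformed and metastasizing cells 0 of 4 were called in limma. The transformed log2FC was 3.00 ± 0.81 for CSF2 (limma, adjusted p = 0.0148) and 3.92 ± 1.25 for CSF3 (adjusted p = 0.0323). Both entered there only through the 3% libraries. For IL6 it was 2.08 ± 0.71 (adjusted p = 0.0435), and for LIF, the fourth, -0.13 ± 0.68. In metastasizing cells CSF2 had 2.05 ± 0.81, LIF 1.25 ± 0.68 and IL6 0.24 ± 0.71. CSF3 stood at 2.13 and 43.1 TPM in the 3% replicates of transformed and at 26.5 and 458 TPM in those of metastasizing cells, against 3.27 and 3.66 TPM in atmospheric metastasizing cells (log2FC 4.81 ± 1.25, adjusted p = 0.0157).

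Among transcription factors and inhibitors, NFKBIA and NFKBIE, which encode inhibitors that NF-κB itself induces, were the 2 of 16 that fell in immortalized cells. NFKBIA was at 210 and 183 TPM at atmospheric and at 71.1 and 61.1 TPM at 3% oxygen (log2FC -1.57 ± 0.28, adjusted p = 0.0025). It was not called in the other stages, with a log2FC of -0.48 ± 0.28 in primary cells. In transformed and in metastasizing cells its log2FC was 1.08 ± 0.28 (limma, adjusted p = 0.0126 and 0.0154). NFKBIE had a log2FC of -1.26 ± 0.28 (adjusted p = 0.00701). In transformed cells ATF3 (1.60 ± 0.39, adjusted p = 0.00924) and CEBPB (1.38 ± 0.31, adjusted p = 0.00652) rose, 2 of 16, and in metastasizing cells FOSL1 did (1.15 ± 0.18, adjusted p = 0.00102), 1 of 16. The calls of NFKBIE, ATF3 and CEBPB were kept in 6, 4 and 6 of 16 fits with a library left out. RELA, an NF-κB subunit, was not called in any stage, with 43.0 to 67.9 TPM over the 16 libraries. The other subunits NFKB1, NFKB2, REL and RELB were not called either. From primary to metastasizing cells the log2FC was 0.22, -0.91, 0.82 and 0.08 for NFKB2 and -0.11, -0.25, 0.55 and 0.57 for NFKB1. NFKB2 in immortalized cells had an adjusted p of 0.00975 in limma, but its log2FC was not beyond 1. Of the mRNA decay factors 1 of 6 was called, ZC3H12A, an RNase that degrades inflammatory mRNAs, which fell in immortalized cells from 45.6 and 47.2 TPM to 7.13 and 7.22 TPM (-2.61 ± 0.53, adjusted p = 0.00501).

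Of the other chemokines outside that region of chromosome 4, 2 of 8 tested fell in immortalized cells, 2 of 6 in transformed and 2 of 6 in metastasizing cells, and 0 rose in any of these stages. CXCL12, which draws lymphocytes and stem cells through CXCR4, fell at 3% oxygen in transformed cells from 261 and 261 TPM to 117 and 75.6 TPM (log2FC -1.47 ± 0.23, adjusted p = 0.000811). In metastasizing cells CXCL12 fell from 403 and 415 TPM to 20.5 and 33.1 TPM (-3.95 ± 0.23, adjusted p = 3.45e-06). The mean of each of the 6 neutrophil chemokines was higher at 3% oxygen in these same cells. CXCL16, a membrane-bound chemokine, fell in immortalized (-1.33 ± 0.29, adjusted p = 0.00713), transformed (-1.49 ± 0.29, adjusted p = 0.00303) and metastasizing cells (-2.49 ± 0.29, adjusted p = 0.000199), the first of these in only 2 of 16 fits with a library left out. CCL11, which attracts eosinophils, fell in immortalized cells from 7.33 and 6.38 TPM to 0.298 and 0.206 TPM (-3.29 ± 0.30, adjusted p = 6.15e-05). The interferon-induced CXCL10 and CXCL11 fell in metastasizing cells by a log2FC of -2.25 ± 0.45 (adjusted p = 0.00425) and -2.24 ± 0.46 (adjusted p = 0.00484), and CXCL11 in transformed cells by -2.36 ± 0.46 (adjusted p = 0.00292). CCL20, which draws lymphocytes and dendritic cells through CCR6, was not called in any stage. Its log2FC from immortalized to metastasizing cells was -1.99, 2.09 and 2.63, the same signs as for the 6 members. In each of these stages CCL20 was under 1 TPM in 1 oxygen group and entered only through the other. The filter thus favoured these signs, and nothing is read from them. CCL2, which draws monocytes, was not called either, with -1.36, 1.37 and -1.53 in these stages. CXCL10 was at 2.19 and 1.92 TPM in metastasizing cells at atmospheric oxygen and at 0 and 0.0757 TPM at 3% oxygen.

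Of the 37 pathway genes that averaged 1 TPM or more in transformed cells at 3% oxygen, 15 were more than 2-fold higher in replicate b and 0 in replicate a. Over all genes of that level 3.51% were more than 2-fold higher in replicate b, and 5.41% differed so in either direction. CSF3 (20.2 times), CSF2 (16.4 times) and IL1A (5.85 times) were among the 15. In metastasizing cells at 3% oxygen 9 of 37 were more than 2-fold higher in replicate b, CSF3 by 17.3 times, and 5 in replicate a. There the shares over all genes were 8.86% for replicate b and 13.3% for either direction.

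**Figure D5:**
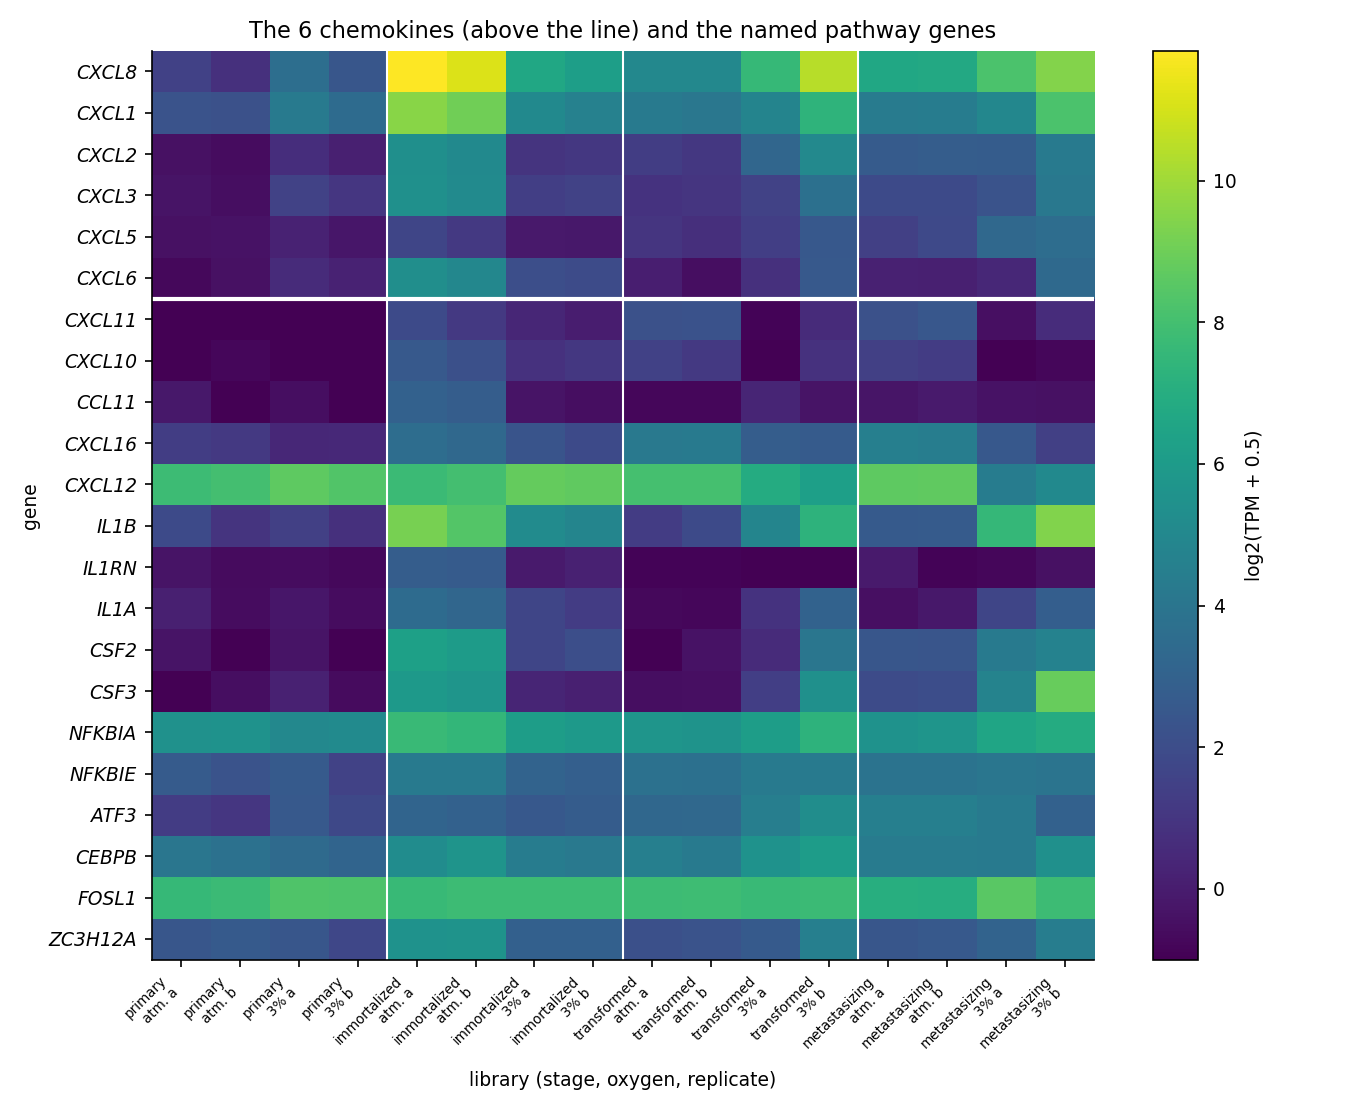
Log2(TPM + 0.5) in the 16 libraries (columns, by stage, oxygen and replicate) of the 6 chemokines above the white line and the named pathway genes under it. IL1B, CSF2 and CSF3 are bright in the atmospheric immortalized columns with CXCL8 and CXCL1. IL1B (677 TPM) and CSF3 (458 TPM) are highest in replicate b of metastasizing cells at 3% oxygen. CXCL12 is darkest in the metastasizing columns at 3% oxygen.

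The 5 protein-coding genes with the pattern most like the mean of the 6 scaled chemokines, among 13136 ranked by Pearson r over the 16 libraries, were ZC3H12C (0.946), IRAK2 (0.941), SLC39A14 (0.936), CSF2 (0.928) and HSD11B1 (0.928). IRAK2, a kinase of the interleukin 1 receptor pathway, was at 29.4 and 24.3 TPM in immortalized cells at atmospheric oxygen and at 6.54 and 5.61 TPM at 3% oxygen, and at 5.89 and 18.9 TPM in the 3% replicates of transformed cells. SLC39A14, a zinc transporter, was at 270 and 229 TPM in immortalized cells at atmospheric and at 119 and 109 TPM at 3% oxygen, and between 50.7 and 75.1 TPM in the primary libraries. HSD11B1, which regenerates active glucocorticoid, was listed at 0 in the 4 primary and in the atmospheric transformed libraries and reached 34.5 and 24.2 TPM in atmospheric immortalized cells. ZC3H12C, a relative of ZC3H12A, ranged from 1.78 TPM in a primary library to 13.5 TPM in an atmospheric immortalized one.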

How the data were processed

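RNA of the 16 BJ fibroblast libraries (4 stages, 2 oxygen levels, replicates a and b) was prepared by the authors with a stranded poly-A kit and sequenced on an Illumina HiSeq2500. The deposited values are TPM per transcript, which the authors estimated with kallisto 0.42.1 on GRCh37. The release of the transcript annotation is not given in the sources used here, and the authors' own count-based test was not repeated, since TPM hold no counts and the depth per library is unknown. Average insert sizes per the labels were 263.74 to 364 bases.

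TPM were summed per gene with GENCODE 44 lifted to GRCh37 (151453 of 180253 transcripts matched without version, 88.2% to 90.1% of the TPM of a library). limma 3.58.1 in R 4.3.3 fitted log2(TPM + 0.5) with 1 coefficient per group and a trend, over 13146 protein-coding genes whose mean reached 1 TPM in any group (8 residual degrees of freedom). Calls needed an adjusted p under 0.01 and a log2 fold change beyond 1. The procedure was also run on simulated data with independent noise for each gene. Those data hold no shift shared by the genes of a library, so the run does not cover the gaps between replicates seen here. An exact permutation test of 2 against 2 libraries cannot go below p = 0.333. Tables and figures used Python 3.11.15, pandas 2.3.3, numpy 2.4.6, matplotlib 3.10.9 and Biopython 1.88. Promoters came from RefSeq (6 of 6 matched by symbol), and 3′ untranslated regions from GENCODE canonical transcripts.

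The members and the pathway lists were chosen with earlier results of these data known. Named genes are the 6 members, 3 receptors, in each other list the 2 genes with the largest fold change among those called in a stage, the 5 genes most like the members, and TERT and HRAS. PPBP, TNF, RELA, REL, RELB, NFKB1, NFKB2, TNFRSF1B, IL6, LIF, CCL2, CCL20, CD68, LUM and DCN were chosen after their values were seen. Alternatives were other pseudocounts (1 and 0.1 TPM), other filters (none, 5 TPM), median-ratio rescaling, fits of only the groups compared, a replicate block, an adjusted p under 0.05, and each library left out. A crossed replicate block was added after seeing the data. PECAM1 was not matched in the gene table.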

Additional observations from a re-analysis of the deposited data

Results flagged for a closer look

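The following differences between neighbouring stages in the response to oxygen passed the same threshold as the calls (limma, interaction of stage and oxygen), and are listed for a closer look. They belong to genes chosen with these values known and are no independent evidence. From primary to immortalized cells the log2 difference was -7.03 for CXCL8, -5.55 for CXCL3 and -5.14 for CXCL2. CXCL2 was under 1 TPM in both primary groups and entered only through the immortalized cells. From immortalized to transformed cells the log2 difference was 9.11 for CXCL8, 7.17 for CXCL2, 6.30 for CXCL1, 5.53 for CXCL3, 5.05 for CXCL6 and 2.64 for CXCL5. Of the latter, those of CXCL2, CXCL3 and CXCL8 were also called in each of the 16 fits with a library left out, whereas every call of the former was lost without some primary or immortalized libraries.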

How the results depend on the processing

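Of 1809 fold changes of the members under an alternative, 1634 kept direction and side of the threshold, 121 lost the call, 33 gained it and 21 changed sign, all 21 by leaving out 1 library. With 2 libraries per group and no read counts, depth and single plates limit what can be called, and the cause of a change was not tested. The number of members called was 3 in immortalized cells between oxygen levels without a filter on low values, and 0 in transformed and in metastasizing cells when only the groups compared were fitted. Between stages at atmospheric oxygen, transformed to metastasizing gave 2 with only the groups compared. At 3% oxygen, primary to immortalized gave 0 without a filter and 2 with only the groups compared, immortalized to transformed gave 1 with a filter of 5 TPM and 0 with only the groups compared, and transformed to metastasizing gave 0 with a pseudocount of 0.1 TPM, without a filter, with only the groups compared, with the replicate block and with the crossed replicate block. For the oxygen effect of immortalized against primary cells 5 were called with only the groups compared and 6 at an adjusted p under 0.05. For the pathway genes the number was 1 at an adjusted p under 0.05 in primary cells, 7 without a filter in immortalized cells, 1 with only the groups compared and 14 at an adjusted p under 0.05 in transformed cells, and 4 with a filter of 5 TPM, 2 with only the groups compared and 14 at an adjusted p under 0.05 in metastasizing cells. The replicate letters do not pair the samples by design: same-letter deviations at the 2 oxygen levels correlated by -0.15, -0.0998, -0.0773 and -0.0973 in the 4 stages, and of 73 member values the replicate block changed the call of 2. With a library left out the number of members called between oxygen levels was 0 to 0 in primary, 1 to 6 in immortalized, 0 to 4 in transformed and 0 to 3 in metastasizing cells, and that of pathway genes 0 to 2, 2 to 15, 1 to 11 and 3 to 13. Between stages it was 5 to 6, 5 to 5 and 0 to 0 at atmospheric and 0 to 1, 2 to 4 and 0 to 1 at 3% oxygen, and for the differences of the oxygen effect 0 to 5, 3 to 6 and 0 to 2. The values that changed sign ranged as follows with a library left out: the oxygen effect of CXCL2 in metastasizing cells from -0.011 to 1.57, CXCL3 from primary to immortalized cells at 3% oxygen from -0.085 to 0.44, and from immortalized to transformed cells at 3% oxygen CXCL1 from -0.10 to 2.48 and CXCL6 from -1.21 to 0.59. From transformed to metastasizing cells at 3% oxygen they were -1.11 to 2.13 for CXCL1, -1.54 to 0.27 for CXCL2, -0.52 to 1.68 for CXCL3, -1.28 to 1.71 for CXCL6 and -1.61 to 1.24 for CXCL8, and for the difference of the oxygen effect between these stages -1.29 to 1.96 for CXCL1, -1.47 to 0.73 for CXCL3 and -1.68 to 1.32 for CXCL6.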
